A study of Mus musculus with 2 samples.

Results

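The kinesin family motors described here are the 38 protein-coding genes whose symbol is Kif followed by a number and at most a letter and a digit, out of 21474 protein-coding genes and 43346 gene rows in all. The rule reads the symbol and uses no measured value. The RNA came from the neural tubes of 2 B6NCrl mouse pups on the day of birth (postnatal day 0), the neural tube being the embryonic structure that becomes the brain and spinal cord. The labels name 1 tube per pup and 1 litter, no treatment and no altered gene, and sex was not collected. There is thus a single group (n = 2) without any contrast, so no p-value was computed, and an SD covers littermates only. Total expected counts on gene rows were 26916916 in pup 1 and 40003518 in pup 2, and the kinesins took 89409 and 123638 of them, or 0.332% and 0.309%. Levels are in TPM, the abundance scaled by transcript length in the deposited tables. Both the gap between the pups and the number of counts limit the precision of a level. Even 0 counts would allow a level of 0.111 CPM (counts scaled to the library total) in pup 1 and 0.075 CPM in pup 2, for counting error only.

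Kinesins are ATP-driven motors that move along microtubules, in most cases towards the plus end, which in an axon points away from the cell body. Those of the kinesin-1, kinesin-2 and kinesin-3 families carry vesicles, mitochondria and proteins down the axon, while a separate set builds and moves the spindle of dividing cells, and a few work in cilia or shorten microtubules. The tissue held markers of neurons and of several other cell types. Neuronal Tubb3, a beta-tubulin, stood at 1094 and 915 TPM in pups 1 and 2, and Fabp7, of radial glia, at 2259 and 2129 TPM. Both of 2 fibroblast markers, both skeletal muscle markers and both erythroid markers were also detected, summing to 257 and 323 TPM, 42.6 and 43.8 TPM, and 954 and 759 TPM. In such bulk tissue, fewer cells of a type and less RNA per cell cannot be told apart.

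Kinesin genes ranged from Kif1a at 555 ± 59.2 TPM (SD, n = 2) to Kif2b with no count in either pup. Both pups had at least 1 TPM, the level called detected here, for 31 of 38 kinesins, against 63.8% of protein-coding genes. Kif24 reached that level only in pup 2, and 6 members reached it in neither pup. The median kinesin was nevertheless lower than the median protein-coding gene, at 2.67 and 2.25 TPM against 5.55 and 5.45 TPM. The members fell into an abundant group, led by axonal transport motors, and a low group that held all mitotic motors. Neighbours in the order of mean levels from Kif1a down to Kif22 lay apart in both pups, except Kif2a and Kif5a, whose values overlapped. Below Kif22 most neighbours overlapped.

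**Figure D1:**
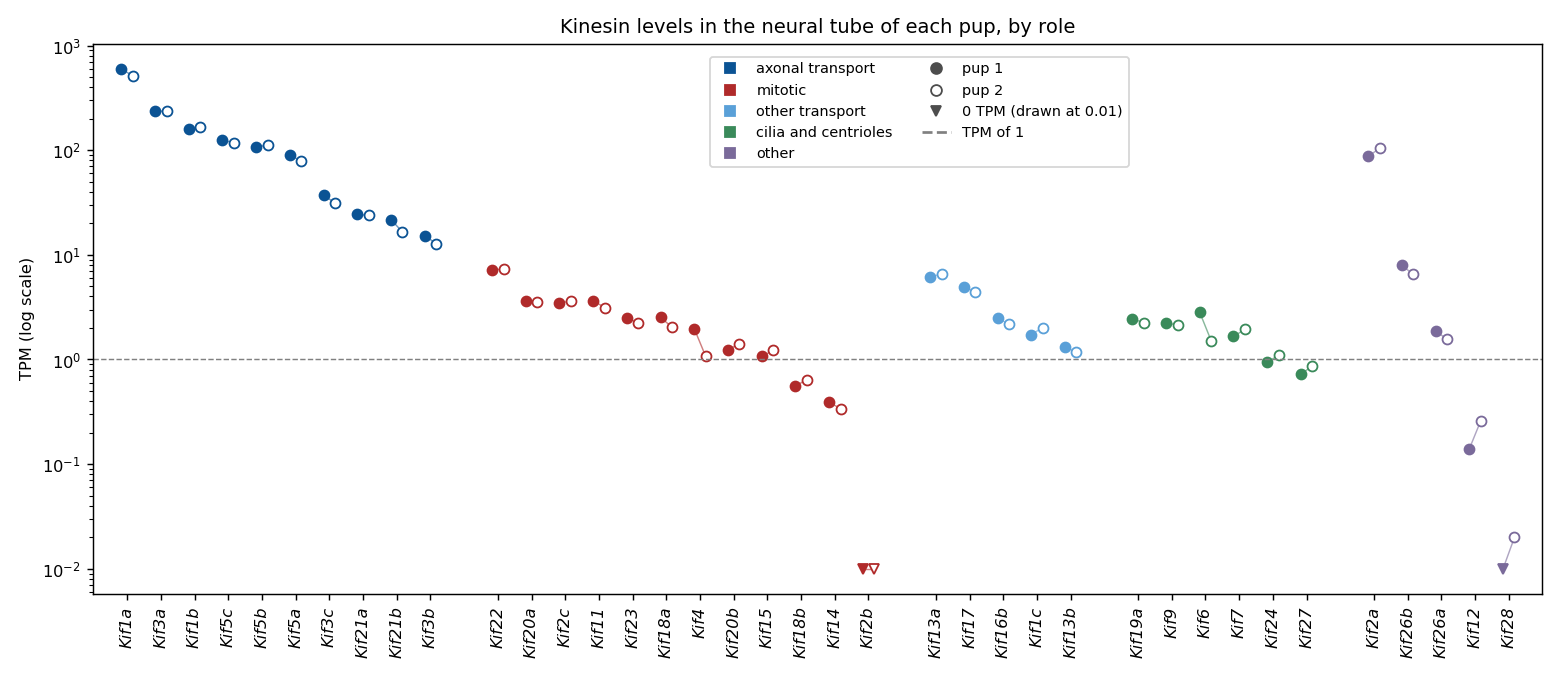
TPM of all 38 kinesin genes on a log scale, grouped by role and sorted by mean within a role, with pup 1 filled and pup 2 open, and values of 0 drawn at 0.01. All 10 axonal transport motors lie above all 12 mitotic motors in both pups, and Kif2a, in the last group, lies among the transport motors.

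All 10 axonal transport kinesins were detected, and together they held 1412 and 1307 TPM, or 90.3% and 88.8% of the kinesin total. The kinesin-1 heavy chains, which pull cargo along axons together with light chains, were represented by all 3 genes at similar levels. Kif5c, enriched in neurons, was at 124 and 118 TPM. Kif5b, the heavy chain made in most cell types, was at 108 and 111 TPM. Kif5a, a neuronal heavy chain, was at 89.2 and 79.2 TPM. The order Kif5c, Kif5b, Kif5a held in both pups, and the 3 genes took 38.5% ± 0.267, 34.8% ± 1.75 and 26.7% ± 1.48 of kinesin-1 heavy chain TPM (SD, n = 2). Counted over transcripts with a complete coding region only, the order was Kif5c, Kif5a, Kif5b, with 49.4% ± 0.908, 34.3% ± 0.981 and 16.3% ± 0.073.

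Kinesin-3 motors carry vesicle precursors, and Kif1a (ENSMUSG00000014602, chr1:93015464-93101951, minus strand, GRCm38) is the main carrier of synaptic vesicle precursors and dense core vesicles. It was the highest kinesin, at 597 TPM in pup 1 and 513 TPM in pup 2. Kif1b, which carries mitochondria or synaptic vesicle precursors depending on its form, stood at 158 and 166.5 TPM (chr4:149176319-149307693, minus strand). Their relative Kif1c, a more widely made motor, was at 1.73 and 2.02 TPM, and the 3 genes took 77.1% ± 2.55 (Kif1a), 22.7% ± 2.50 (Kif1b) and 0.262% ± 0.0479 (Kif1c) of their summed TPM (SD, n = 2). Over complete coding transcripts the shares were 68.4% ± 0.722, 30.6% ± 0.477 and 1.04% ± 0.245.

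Kinesin-2 is a trimer of Kif3a, a second motor chain and the accessory protein Kifap3, and it serves axonal transport and the building of cilia. Kif3a was at 237 and 235 TPM (chr11:53567379-53601967, plus strand) and was the second highest kinesin. Its partner Kif3b was at 15.3 and 12.8 TPM. Its neuronal partner Kif3c was at 37.1 and 31.4 TPM, and the accessory gene Kifap3 at 99.8 and 93.5 TPM. In gene TPM the 2 partner chains together thus lay far below the shared chain in both pups, with Kif3c above Kif3b. Kif3a took 81.9% and 84.2% of the TPM of the Kif3 genes. Restricted to complete coding transcripts, Kif3a remained above both, at 126 and 123 TPM, with 70.6% and 73.6%. In expected counts its share was 55.1% and 58.1%. Kif3b and Kif3c have 1 transcript row each, so the restriction lowered Kif3a only. Kif3c shares 2617 exonic bases with an antisense gene, 1110002L01Rik, that held 435 and 529 expected counts. The expected counts of Kif3c, 4316.46 and 5623.25, were not whole. Its own level is uncertain, since the strand setting of the counting is not given in the sources used here. The kinesin-4 motors Kif21a and Kif21b, which restrain microtubule growth, were at 24.4 and 23.8 TPM and at 21.7 and 16.6 TPM.

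Mitotic kinesins were all low. Of 12 members 9 were detected in both pups, with sums of 28.1 and 26.6 TPM, or 1.80% and 1.81% of the kinesin total. Kif22, a chromokinesin that pushes chromosome arms to the spindle equator, led at 7.11 and 7.36 TPM. Kif20a, which brings the chromosomal passenger complex to the central spindle, was at 3.63 and 3.55 TPM. Kif2c, which depolymerises microtubules at centromeres, was at 3.49 and 3.60 TPM. Kif11, the motor that separates the spindle poles, was at 3.66 and 3.13 TPM. These 3 could not be ordered, because their values overlapped between pups. Kif23, the motor of the centralspindlin complex in cytokinesis, was at 2.49 and 2.24 TPM. Kif18a, which aligns chromosomes, was at 2.52 and 2.04 TPM. Kif4, a chromokinesin, was at 1.97 and 1.07 TPM, the widest gap among them. Kif20b, of late cytokinesis, was at 1.24 and 1.41 TPM, and Kif15, which helps to keep the spindle bipolar, at 1.07 and 1.22 TPM. Kif18b and Kif14 stayed below 1 TPM, at 0.56 and 0.64 TPM and at 0.39 and 0.34 TPM, and Kif2b had no count. Kif20a shares 1271 exonic bases with Cdc23 on the opposite strand and Kif4 shares 832 with Pdzd11, so reads of either pair could not be told apart without a strand setting.

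The axonal transport motors outweighed the mitotic motors by 50.2-fold in pup 1 and 49.1-fold in pup 2 in summed TPM, a mean of 49.7 ± 0.746 (SD, n = 2). The medians of the 2 lists, 98.6 and 95.3 TPM against 2.23 and 1.73 TPM, differed by 44.2-fold and 55.2-fold. The lists did not overlap: the lowest axonal member, Kif3b, had 15.3 and 12.8 TPM, and the highest mitotic member, Kif22, had 7.11 and 7.36 TPM. The size of the gap depended on which transcripts were counted. With complete coding transcripts only, the summed ratio was 24.4 and 23.4, and the median ratio 27.1 and 27.7. In that measure the lists overlapped, because Kif21b then had 6.69 and 3.0 TPM, below Kif22. This overlap rests on the annotation label of its top transcript, Kif21b-204, which is labelled nonsense-mediated decay and so left out. The annotated coding region of Kif21b-204 has 4917 bases, against 4872 in the complete Kif21b-201. The lists were drawn up by known role, with earlier results of these data known, so their separation describes this tissue and carries no test.

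Among the 5 other transport motors, all were detected and none reached the axonal group. Kif13a, of endosome transport, was at 6.09 and 6.61 TPM. Kif17, which carries receptor cargo in dendrites, was at 4.95 and 4.42 TPM, and Kif16b, of early endosomes, at 2.47 and 2.19 TPM. Kif13b, a relative of Kif13a, was lowest at 1.33 and 1.17 TPM, so Kif13a took 83.5% ± 2.04 of the TPM of the pair. Kif17 shares 74 exonic bases with Sh2d5 on the same strand.

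Kinesins of cilia and centrioles were near the detection level, with 4 of 6 above it in both pups. Kif19a, which limits the length of cilia, was at 2.44 and 2.25 TPM, and Kif9, of motile cilia, at 2.24 and 2.14 TPM. Kif7, which acts in Hedgehog signalling at the tip of the cilium, was at 1.66 and 1.94 TPM. Kif6, a motor of motile cilia, was at 2.82 and 1.51 TPM, of which its complete coding transcript held 0.69 and 0.53 TPM. Kif24, which acts at centrioles, was at 0.94 and 1.10 TPM, and Kif27, a relative of Kif7, at 0.72 and 0.87 TPM. The levels of this group overlapped those of the mitotic motors. Kif7 and Kif27 each overlap antisense genes, with 877 and 332 shared exonic bases.

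Of the 5 remaining members, Kif2a stood apart. This microtubule depolymeriser, known for holding back the growth of axon branches, was at 87.1 and 104.5 TPM (chr13:106958996-107022126, minus strand), and took 96.4% ± 0.371 of Kif2 subfamily TPM beside the mitotic Kif2c and Kif2b. It shares 1229 exonic bases with Dimt1 on the opposite strand. Kif26b, an atypical kinesin, was at 7.91 and 6.51 TPM, and its relative Kif26a at 1.86 and 1.57 TPM. Kif26b shares 909 exonic bases with an antisense gene, Gm16564, that held 14.1 and 21.1 expected counts. Kif12 was at 0.14 and 0.26 TPM, and Kif28 at 0 and 0.02 TPM on 0 and 2 expected counts.

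The transcript tables divide each gene's TPM among its annotated transcripts, and for several abundant kinesins the gene level rested on short models. A transcript's TPM is its expected count divided by its effective length, here the length minus 99 bases, so a short model reaches a high TPM on few counts. Complete coding transcripts held under 50% of gene TPM in both pups for 6 of the 31 detected kinesins, against 10.7% of detected protein-coding genes. These were Kif1a, Kif1b, Kif5b, Kif2a, Kif21b and Kif6. By contrast, Kif5c, with 6 transcript rows, had 99.8% of its TPM in complete coding transcripts in pup 1. Kif5a, Kif3b and Kif3c have only 1 transcript row each, a complete coding one, so their 100% was set by the annotation. In all, 13 members have 1 transcript row.

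Of Kif1a TPM, Kif1a-206, a 528-base model with an incomplete coding region, took 56.0% in pup 1 and 51.8% in pup 2. Kif1a-208, a 570-base processed transcript without a coding region, took 20.8% and 26.3%. The 8206-base Kif1a-204, the complete form with the most counts, took 14.3% and 12.3% of TPM but 58.5% and 53.4% of expected counts. Most bases of the short models, 446 of 528 and 546 of 570, lie in exons of Kif1a-204, so reads there fit both. As assigned, expected counts per 1000 bases were higher on Kif1a-206, at 4688 and 5734, than on Kif1a-204, at 1450 and 1661. This repeats the order in TPM, since both measures rest on the same assigned counts. Complete coding Kif1a came to 137 and 112 TPM, which no longer stood apart from complete coding Kif3a, at 126 and 123 TPM, or Kif5c, at 124 and 118 TPM.

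Kif2a-205 shows what such a model looks like. It is a 288-base model, coding throughout but incomplete at its ends, in 4 exons of chr13:106987327-106993920 (GRCm38, minus strand), and all of its bases lie in exons of the full-length Kif2a-201. It skips 1 exon of 123 bases at chr13:106987953-106988075 and thereby joins 2 exons that no other of the 7 annotated Kif2a transcripts joins directly. Its sequence follows, 5′ to 3′, with 10 bases on each side of that junction in capitals.
Kif2a-205: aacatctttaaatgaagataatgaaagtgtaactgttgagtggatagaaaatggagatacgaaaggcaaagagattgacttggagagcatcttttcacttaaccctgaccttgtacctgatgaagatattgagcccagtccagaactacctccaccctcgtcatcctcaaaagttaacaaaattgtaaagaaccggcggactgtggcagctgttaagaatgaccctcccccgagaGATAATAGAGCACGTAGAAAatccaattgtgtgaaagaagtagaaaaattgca
On an effective length of 189 bases it held 181 and 366 expected counts, or 7.43% and 9.77% of Kif2a counts, and yet 63.8% and 69.7% of Kif2a TPM. Kif2a-201, of 5304 bases, held 72.6% and 67.2% of counts and 22.6% and 17.4% of TPM. Complete coding Kif2a came to 31.0 and 30.2 TPM in pups 1 and 2, so the higher gene level in pup 2 lay in the short model.

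Other abundant members were split in similar ways. Of Kif5b TPM, the 2006-base Kif5b-202, incomplete at its end and contained whole in the exons of Kif5b-201, took 55.6% and 59.0%, and the complete Kif5b-201 took 38.3% and 34.5%. Of Kif3a TPM, the complete Kif3a-203 took 32.3% and 26.2% and Kif3a-206, a 770-base nonsense-mediated decay model, 30.3% and 31.3%, so the top transcript differed between the pups. Kif21b was different, because its top model was long: Kif21b-204, a 9254-base nonsense-mediated decay transcript, took 61.8% and 77.7% of TPM and 66.0% and 80.6% of counts. It shares 9074 bases with exons of the complete Kif21b-201, among them all 4872 coding bases of that form. Among 25 kinesins with several transcripts and counts in both pups, 2 were led in both pups by a transcript without a protein-coding label, against 8.53% of such genes, a share near that of all genes. They were Kif1b and Kif21b. The top transcript was the same in both pups for 18 of the 25, against 86.5% of such genes.

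**Figure D2:**
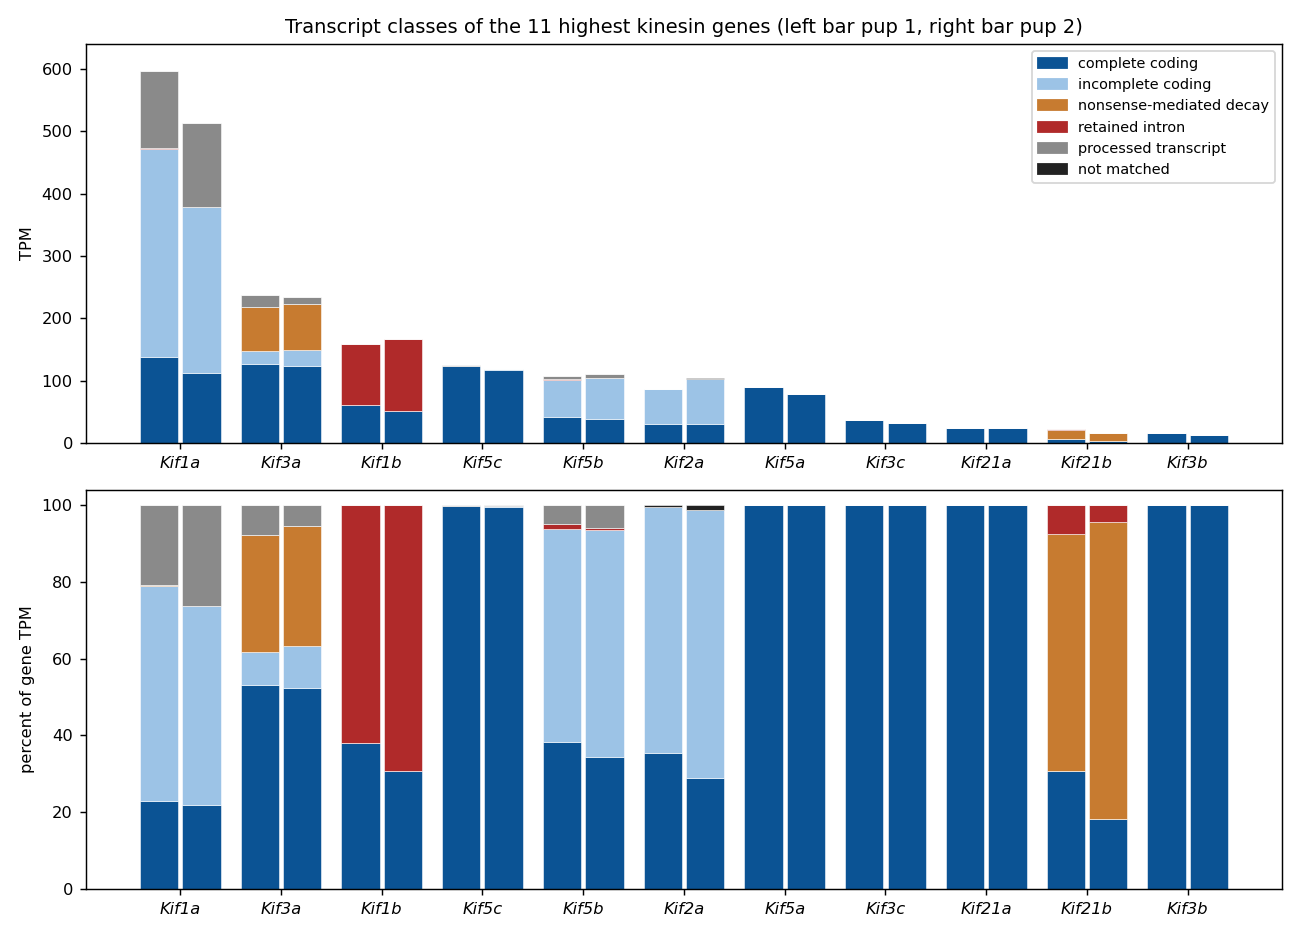
TPM (upper panel) and percent of gene TPM (lower panel) of the 11 highest kinesin genes, divided by transcript class, with pup 1 as the left bar and pup 2 as the right bar of each pair. Kif5c, Kif5a, Kif3c, Kif21a and Kif3b consist almost wholly of complete coding transcripts, while Kif1a keeps 137 and 112 TPM of its 597 and 513 TPM in that class. Kif5a, Kif3c, Kif21a and Kif3b have only complete coding transcript rows, so their class was set by the annotation.

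Kif1b makes a short protein, known as the alpha form, which carries mitochondria, and a long one, the beta form, which carries synaptic vesicle precursors; they share the motor domain and differ in the tail. The long form is Kif1b-203 here, with 5448 coding bases, and the short form Kif1b-201, with 3450 coding bases and a last coding segment of its own. Kif1b-203 took 36.0% of Kif1b TPM in pup 1 and 28.8% in pup 2. Kif1b-201 took 2.11% and 1.94%. Among protein-coding transcripts, incomplete ones included, the long form thus held 94.4% and 93.7%, a mean of 94.0% ± 0.501 (SD, n = 2). In expected counts, which are not divided by length, it held 9952 and 12908, against 397 and 591 for the short form.

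Most Kif1b TPM was not coding. Kif1b-205, a 587-base retained-intron model, took 46.6% and 47.8%, and Kif1b-209, a 2980-base retained-intron model, took 13.9% and 20.4%. All retained-intron models together took 61.8% and 69.3% of TPM, but 14.3% and 21.3% of expected counts, and Kif1b-203 took 82.4% and 75.2% of counts. The retained-intron share was higher in pup 2 on either scale. Of the 587 bases of Kif1b-205, 411 lie in exons of Kif1b-203, and of the 2980 bases of Kif1b-209, 1215. Both models start at the 5′ end of the gene. Whether their reads came from unspliced RNA was not tested.

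**Figure D3:**
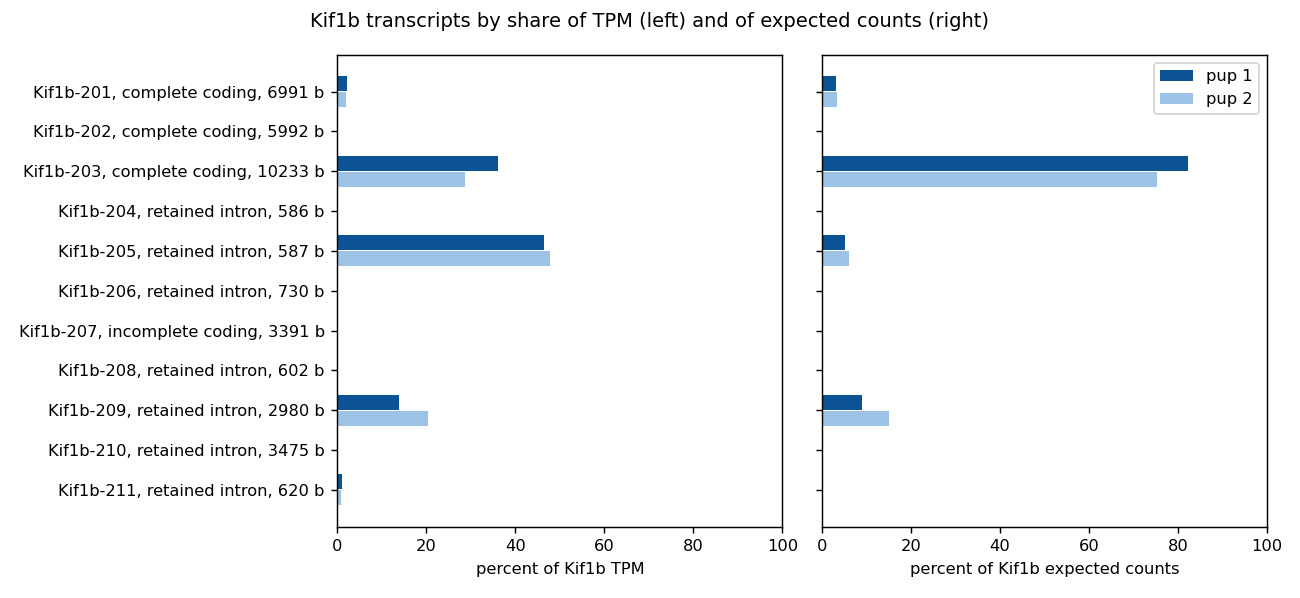
Each of the 11 Kif1b transcripts as a percent of Kif1b TPM (left panel) and of Kif1b expected counts (right panel), with pup 1 above pup 2. Kif1b-205 leads by TPM with 46.6% and 47.8%, whereas Kif1b-203 leads by counts with 82.4% and 75.2%.

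A second annotated long form, Kif1b-202, with 5310 coding bases, received 0 expected counts in both pups. All of its bases lie in exons of Kif1b-203, which has 4241 further bases, 4103 of them outside the coding region and 138 in 3 coding segments of 18, 42 and 78 bases. They lie at chr4:149265345-149265362, chr4:149261160-149261201 and chr4:149258004-149258081 (GRCm38, minus strand), and are shown because they are the coding difference between the long forms. Which of these bases set the assignment of reads between the forms was not tested. The first 2 are whole exons and the last is part of one. They are written 5′ to 3′ in transcript order.
Kif1b segment 1: gataactgcacaagcaag
Kif1b segment 2: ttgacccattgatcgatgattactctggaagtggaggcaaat
Kif1b segment 3: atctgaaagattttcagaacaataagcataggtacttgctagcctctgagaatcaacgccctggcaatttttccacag
The lengths of all 3 are multiples of 3, so a form with or without them keeps the same reading frame.

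By fold difference, the kinesins differed between the pups about as often as other genes. Of 36 kinesins that averaged 10 or more expected counts, 2 lay at least 1.5-fold apart after TMM scaling, against 7.9% of genes that passed the same filter. Both were higher in pup 1, against 3.21% of genes at least 1.5-fold higher there. Kif6 had 2.82 TPM in pup 1 and 1.51 TPM in pup 2, on 83 and 76 expected counts, a log2 ratio of 0.66 in scaled counts. Its retained-intron models held 2.14 and 0.66 TPM, and its complete coding transcript 0.69 and 0.53 TPM, so the gap lay mainly in the retained-intron models. Kif4 had 1.97 and 1.07 TPM, on 147 and 138 expected counts, a log2 ratio of 0.64 in scaled counts. Each difference rests on 1 library per pup and on few counts, and Kif4 is also the gene that overlaps Pdzd11. The median log2 ratio was 0.05 over the kinesins and 0.00 over protein-coding genes. Some cell type markers differed between the pups as well. Mbp, of myelin, had 183 TPM in pup 1 and 363 TPM in pup 2, a log2 ratio of -0.93. The fibroblast genes Col1a1 and Dcn had log2 ratios of -0.40 and -0.40. Oligodendrocyte-lineage Olig1 and Pdgfra had -0.17 and -0.10, microglial Cx3cr1 and C1qa -0.21 and -0.04, and skeletal muscle Acta1 and Myl1 -0.06 and -0.26. Higher in pup 1 were the erythroid genes Hbb-bs and Alas2, at 0.26 and 0.37, and endothelial Cldn5 and Pecam1, at 0.26 and 0.05. Aldh1l1, Slc1a3 and Fabp7, of astrocytes and radial glia, had 0.14, 0.15 and 0.02. The 4 neuronal markers went both ways, with 0.19 for Tubb3, 0.07 for Snap25, 0.045 for Rbfox3 and -0.11 for Stmn2. The part of such differences in the kinesin values was not tested. For 8 of 38 members the deposited TPM intervals of the pups did not overlap, against 14.9% of protein-coding genes. These intervals lie around the posterior mean TPM and not around the TPM given here. Pup 1 was higher in all 8, against 9.87% of protein-coding genes with such a gap in that direction. These were Kif1a, Kif5c, Kif5a, Kif3c, Kif21b, Kif3b, Kif26b and Kif4. Their mean expected counts ran from 142.5 for Kif4 to 22934.5 for Kif1a. The shares of protein-coding genes were taken without a filter on counts, so they do not compare genes of like depth.

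**Figure D4:**
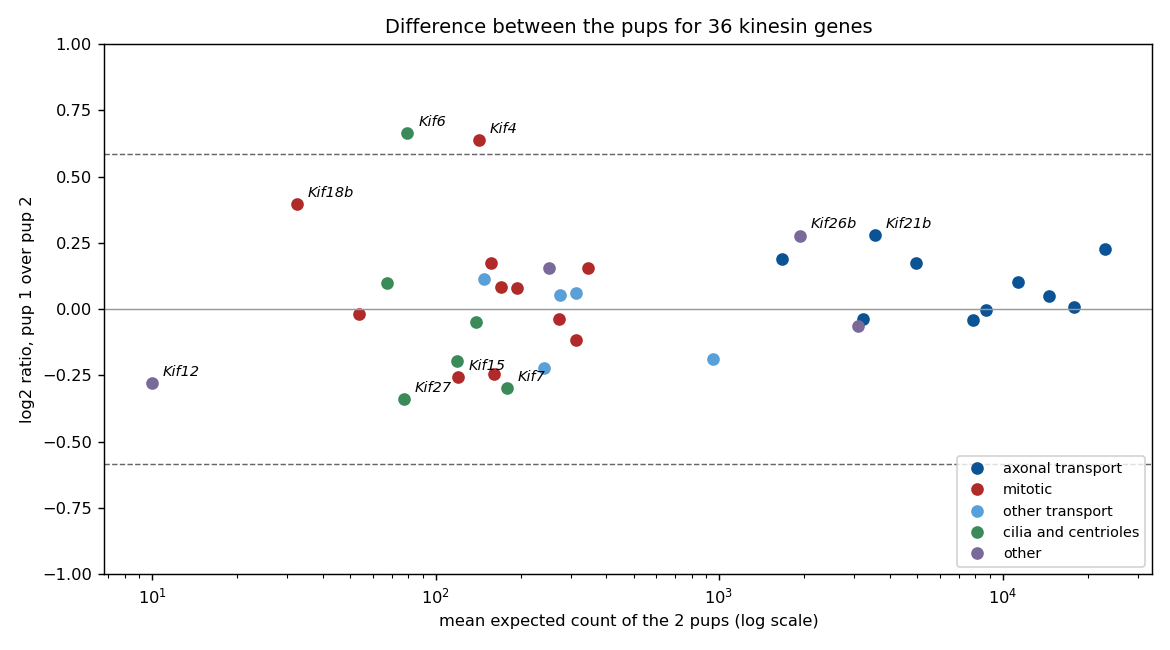
Log2 ratio of pup 1 over pup 2 against the mean expected count (log scale) for the 36 kinesins that averaged 10 or more counts, coloured by role, with dashed lines at 1.5-fold. Kif6 and Kif4, at 0.66 and 0.64, lie outside the lines, and the axonal transport motors lie within them, with Kif21b highest at 0.28.

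Partner genes of the transport motors reached higher levels than those of the mitotic motors, though the lists overlapped. Of the kinesin light chains, which couple kinesin-1 to cargo, Klc1 was at 445 and 381 TPM, Klc2 at 72.6 and 60.4 TPM and Klc4 at 17.6 and 15.6 TPM, while Klc3 reached 1 TPM only in pup 2, at 0.87 and 1.62 TPM. All 12 adaptors and regulators of transport kinesins were detected, with means of 10.95 to 425 TPM and Trak2, a mitochondrial adaptor, lowest. They were led by Fez1, a kinesin-1 adaptor, at 433 and 417 TPM and by Arl8a, a GTPase that recruits kinesins to lysosomes and vesicle precursors, at 315 and 287 TPM. Kif1bp, a regulator that binds several kinesins, was at 67.5 and 69.6 TPM. The 6 genes of dynein and dynactin, the motor complex that runs the other way, were all detected, with means of 42.6 to 110.5 TPM. The 10 spindle and passenger partners, such as Aurkb, Incenp and Birc5, were also all detected, with means of 2.58 to 16.0 TPM, so Trak2 and Rhot2 lay within their range and Klc3 below it. Kinesins outside the symbol rule showed both patterns: Kifc2, a neuronal minus-end motor, was at 90.9 and 70.6 TPM, while Cenpe, the motor of kinetochores, was at 1.94 and 2.11 TPM and Kifc1, of the spindle, at 1.32 and 1.32 TPM.

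A motif of cell cycle genes was found in the promoters of most mitotic members, and in 1 of 7 axonal members, near the share of all genes. Many genes of late cell cycle phases carry a cell cycle homology element, read here as TTTGAA. A variant with other letters, TTCGAA, was also searched. Such genes often have a CCAAT box, the site of the factor NF-Y, a short distance before that element. Promoter windows of 250 bases before and 50 after the start were taken from RefSeq (GRCm38.p6) for 31 of 38 members, and both strands were searched. Kif5a, Kif5b, Kif21b, Kif20a, Kif13b, Kif19a and Kif28 had no window. TTTGAA was found for 1 of 7 axonal members and 9 of 11 mitotic members, against 17.9% of all 32841 windows and 20.2% of genes with a window. The axonal gene was Kif1a, in the downstream one of its 2 windows, at chr1:93082431-93082730. TTCGAA was found for 0 of 7 and 0 of 11, against 1.56% of all windows and 1.8% of genes. CCAAT was found for 3 of 7 and 7 of 11, against 37.4% of windows and 41.1% of genes. Both kinds of element together were found for 0 of 7 and 6 of 11, against 7.52% of windows and 8.61% of genes. They were counted in any order and at any distance: Kif14 has its TTTGAA at -228, before its CCAAT at -92. Both kinds together were also found outside these lists, for 2 of 5 cilia and centriole genes, Kif24 and Kif27, and for 1 of the 4 remaining genes, Kif26b. These are matches of letters and show no binding, and the counts of genes are small.

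The promoters of 2 abundant axonal motors and 3 mitotic motors follow, 5′ to 3′ on the strand of the gene, with CCAAT boxes and homology elements in capitals. On the opposite strand a CCAAT box reads ATTGG, and the homology element reads TTCAAA. They are shown to set windows with both elements beside windows with neither. Kif1a lies at chr1:93101825-93102124 (minus strand), Kif5c at chr2:49619036-49619335 (plus), Kif22 at chr7:127042371-127042670 (minus), Kif11 at chr19:37376132-37376431 (plus) and Kif23 at chr9:61946750-61947049 (minus).
Kif1a: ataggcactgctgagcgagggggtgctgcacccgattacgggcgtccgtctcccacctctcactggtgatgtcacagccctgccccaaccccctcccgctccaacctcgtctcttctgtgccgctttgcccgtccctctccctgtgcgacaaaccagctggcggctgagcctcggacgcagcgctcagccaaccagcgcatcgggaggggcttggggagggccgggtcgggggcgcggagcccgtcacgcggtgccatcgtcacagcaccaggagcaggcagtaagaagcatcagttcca
Kif5c: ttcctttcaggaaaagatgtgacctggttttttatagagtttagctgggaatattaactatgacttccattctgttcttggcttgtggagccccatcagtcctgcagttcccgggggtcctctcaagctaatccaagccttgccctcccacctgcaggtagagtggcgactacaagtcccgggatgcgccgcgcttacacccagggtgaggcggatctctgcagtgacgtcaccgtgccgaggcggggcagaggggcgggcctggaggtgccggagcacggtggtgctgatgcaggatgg
Kif22: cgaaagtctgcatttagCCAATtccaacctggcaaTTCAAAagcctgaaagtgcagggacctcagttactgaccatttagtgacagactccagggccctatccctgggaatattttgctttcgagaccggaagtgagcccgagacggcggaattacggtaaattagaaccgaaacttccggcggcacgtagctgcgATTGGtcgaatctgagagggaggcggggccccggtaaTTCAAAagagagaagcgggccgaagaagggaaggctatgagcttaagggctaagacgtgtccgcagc
Kif11: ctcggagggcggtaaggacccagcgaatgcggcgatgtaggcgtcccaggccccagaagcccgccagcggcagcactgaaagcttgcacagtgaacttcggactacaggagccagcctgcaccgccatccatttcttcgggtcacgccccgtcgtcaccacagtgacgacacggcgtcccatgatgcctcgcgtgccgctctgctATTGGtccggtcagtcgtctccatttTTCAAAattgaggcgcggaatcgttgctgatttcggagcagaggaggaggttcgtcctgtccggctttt
Kif23: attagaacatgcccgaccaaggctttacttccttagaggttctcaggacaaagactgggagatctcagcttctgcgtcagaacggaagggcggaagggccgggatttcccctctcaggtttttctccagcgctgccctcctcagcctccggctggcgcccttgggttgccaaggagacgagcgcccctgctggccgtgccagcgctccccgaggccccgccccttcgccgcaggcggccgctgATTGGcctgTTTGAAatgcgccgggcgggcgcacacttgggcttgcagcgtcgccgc
Counted from the start site, Kif11 has its CCAAT letters beginning at -45 and its TTTGAA letters at -19, both on the opposite strand. Kif22 has such a pair at -54 and -17. A pair farther out is on mixed strands, with CCAAT at -233 on the strand of the gene and TTTGAA at -215 on the opposite one. Kif23 has CCAAT at -7 and TTTGAA at 3. The window of Kif5c and the printed window of Kif1a, the upstream one, hold none of these letters.

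**Figure D5:**
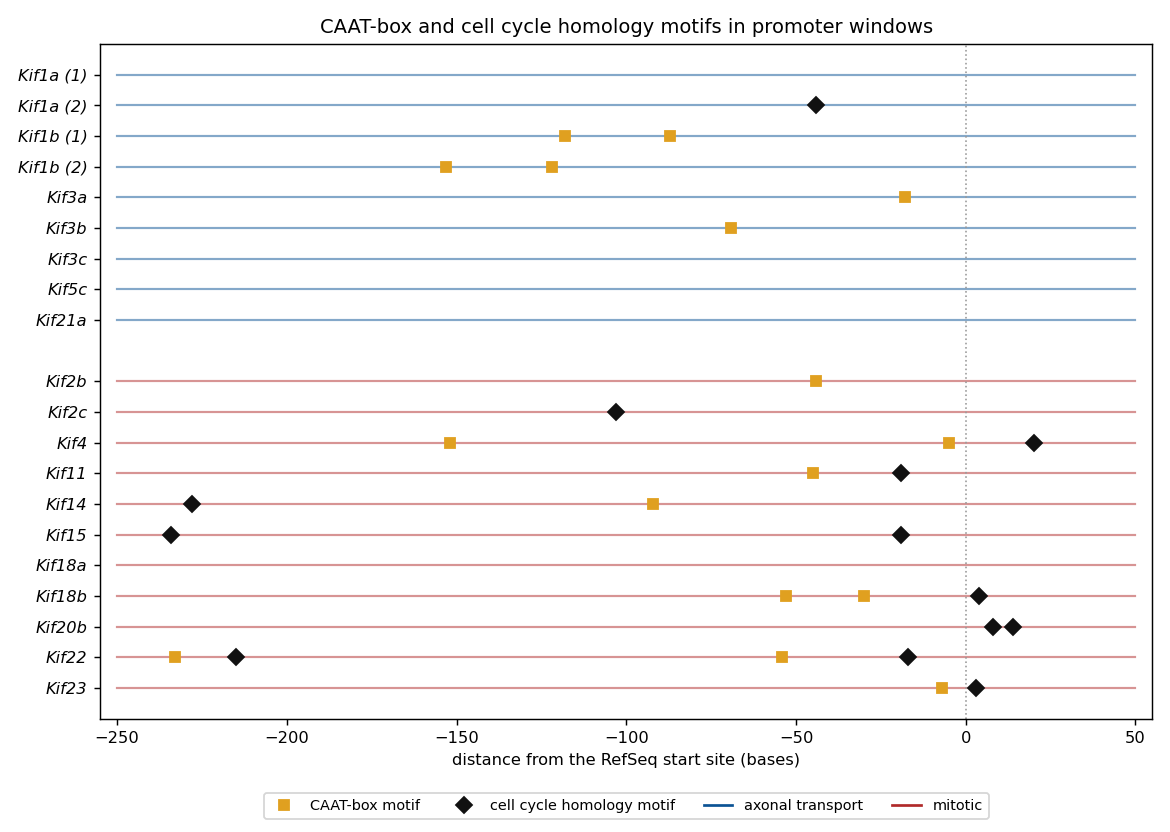
Positions of the CAAT-box motif (squares) and the cell cycle homology motif (diamonds), in bases from the RefSeq start site, in the windows of 7 axonal transport genes (upper block, with 2 windows each for Kif1a and Kif1b) and 11 mitotic genes (lower block). The homology motif appears in 9 of 11 mitotic genes, and among axonal genes in 1 window of Kif1a.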

How the data were processed

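The total RNA-seq libraries of both neural tubes formed a single group (n = 2). Each library was made from 10 ng of RNA longer than 200 bases that had been isolated with mirVana reagents, per the labels. Per the file headers, the deposited tables hold expected counts (reads as estimated, with fractions), TPM, posterior mean TPM and bounds labelled for TPM. For the kinesins these bounds lay around the posterior mean TPM, and the TPM itself could fall outside them. Kif1a in pup 1 had 596.9 TPM, with a posterior mean of 578.5 TPM and bounds of 561.1 and 595.8 TPM. The deposited percent values divide the TPM of a gene among its transcripts. Genome mm10 and annotation GENCODE M4 are named in the deposited notes. Not given in the sources used here are the aligner, the quantifier's version, the level of the intervals and whether counting used strand.

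Symbols, biotypes, coding regions and coordinates came from GENCODE M21 (GRCm38, the build of mm10), matched on ID without version, and biotypes may differ from those of the annotation used for counting. All 38 members matched, as did 149 of their 150 transcript rows. Kif19b, on the list of cilia genes, matched no row. Background shares leave out genes with an unmatched top transcript, or with over 5% of TPM in unmatched transcripts. Expected counts were whole, within 0.005, in both pups for 31 members. The others were Kif2a, Kif3c, Kif26b, Kif20a, Kif7, Kif4 and Kif27. Each of them shares exonic bases with a gene on the opposite strand that held counts. Kif18a, which shares 11 exonic bases with Mettl15 on the opposite strand, had whole counts. Whether reads were split between strands was not tested. A gene was detected at a TPM of at least 1. For ratios between pups, expected counts were rounded and scaled by TMM in edgeR 4.0.16 (R 4.3.3), with a prior count of 2 and a mean count of at least 10, and DESeq2 1.42.0 size factors, library totals and spike-in totals were alternatives. The ratio step was tested on simulated data. Python 3.11.15 with pandas 2.3.3, numpy 2.4.6 and matplotlib 3.10.9 served for the rest.

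The members, role lists, partner lists and motifs were chosen with earlier results of these data known. Every member that reached 1 TPM in either pup is given with both values, and Kif1b transcripts at 5% or more in either pup are named. The complete coding class, the minimum transcript length and the counts per 1000 bases were added after the data had been seen.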

Additional observations from a re-analysis of the deposited data

How the results depend on the processing

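The ratio of axonal to mitotic summed TPM, 49.7, was 45.4 with posterior mean TPM, 44.3 with Kifc1 and Cenpe added to the mitotic list, and 38.3 with protein-coding transcripts only. It was 23.9 with complete coding transcripts only and 27.3 with transcripts of at least 1000 bases, both chosen after seeing the data. Without 1 pup it was 49.1 to 50.2. The ratio of medians, 49.7, was 40.1 with protein-coding and 27.4 with complete coding transcripts, and 44.2 to 55.2 without 1 pup. Axonal motors were higher under each of these settings. The Kif1b long-form share, 94.0%, was 95.9% by expected counts and 93.7% to 94.4% without 1 pup. The Kif1b retained-intron share, 65.6%, was 17.8% by expected counts and 61.8% to 69.3% without 1 pup. Detected members, 31, numbered 34 at a TPM of at least 0.5, 23 at 2, 33 by posterior mean TPM, 34 at a CPM of at least 1, and 31 to 32 without 1 pup. Members at least 1.5-fold apart, 2, numbered 1 at a mean count of at least 100, where Kif6 was left out. They numbered 3 with spike-in totals as the scale and 3 with no filter on counts. Spike-in totals as the scale shifted the median log2 ratio of all genes by 0.29. Kinesins led by a non-coding transcript numbered 1 by shares of expected counts, and 3 to 5 without 1 pup. No paired analysis was possible because there is 1 group. Depth limits members with few counts, such as Kif12, Kif14 and Kif18b.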
